A study of Homo sapiens with 12 samples.

Results

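The genes of glycolysis and of the cellular response to low oxygen were followed through knock-down of SOX2 in 2 human embryonal carcinoma lines. The list held 36 genes, chosen by name and found through the platform annotation, by a rule that used none of their values. Earlier results of these data were known when it was chosen, so the shares set beside those of all genes are descriptive. It comprised 16 glycolysis enzymes, 4 regulators of glycolysis, 4 carriers of glucose and lactate, 10 targets of hypoxia and 2 hypoxia-inducible factors. A probe set annotated to a single gene was found for 32 of the 36, out of 18404 genes measured in this way. The 4 others are not analysed here: PGAM1, a phosphoglycerate mutase, had only probe sets shared with PGAM4, and no probe set was named for the lactate carriers SLC16A1 and SLC16A3 or for the carbonic anhydrase CA9.

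NTera-2 is a pluripotent embryonal carcinoma line, whereas 2102Ep is called nullipotent because retinoic acid does not make it differentiate. Each line received an siRNA against SOX2 (siSOX2) or a non-targeting control siRNA, with 3 arrays in each of 4 groups: NTera-2 siSOX2, NTera-2 control, 2102Ep siSOX2 and 2102Ep control. All cells were seeded 24 hours ahead in high-glucose medium and transfected for 6 hours in serum-free medium. They were then kept for 72 hours, with fresh growth medium each day, before RNA was taken. Passages were 40 to 50 for NTera-2 and 35 to 50 for 2102Ep. The paper reports that siSOX2 cells of both lines became flatter, larger and more spread out, where control cells grew as dense colonies. The replicates are labelled biological, and the sources do not state the oxygen level in the incubator. A single siRNA was used without a rescue. The transfection lipid and the siRNA amount were not the same for both lines, so the effects of these and of the line itself cannot be told apart.

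Glycolysis turns glucose into pyruvate with a small yield of ATP, and lactate dehydrogenase turns pyruvate into lactate when it does not enter the mitochondria. Pluripotent stem cells and embryonal carcinoma cells are known for a high rate of this pathway even when oxygen is present. When oxygen is scarce, the prolyl hydroxylases that mark the hypoxia-inducible factors HIF1A and EPAS1 for destruction stop working, and the stabilised factors bind a short element in the promoters of glycolysis enzymes, PDK1, BNIP3, VEGFA and many other genes. HIF1A itself is controlled mainly as a protein, which an RNA array does not measure.

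The RNA of the targeted gene was reduced in both lines, less in NTera-2. By Western blot the authors detected no SOX2 protein in siSOX2 cells of either line. SOX2 had log2 signals of 11.92, 11.95 and 11.86 on NTera-2 siSOX2 arrays, against 12.51, 12.52 and 12.63 on NTera-2 control arrays, a fall to 64.0% of control (95% interval 53.9 to 75.9, limma adjusted p = 0.00225). It had 9.17, 9.30 and 8.80 on 2102Ep siSOX2 arrays, against 12.28, 12.21 and 12.20 on 2102Ep control arrays, a fall to 11.4% (9.59 to 13.5, adjusted p = 6.22e-12). Of 15 markers of embryonal carcinoma 13 were measured, among them SOX2, the target of the siRNA. With SOX2 counted, 6 of the 13 fell in NTera-2 and 9 in 2102Ep. The summed signals of the 13, SOX2 included, were 42660 to 46370 on siSOX2 and 46760 to 56190 on control arrays of NTera-2. In 2102Ep they were 32340 to 36250 against 48260 to 55670. ZFP42 averaged 5.44 on siSOX2 and 5.66 on control arrays of NTera-2, against 9.29 and 9.80 in 2102Ep. It had the lowest difference of the 13 between the control groups, -4.138. Of 10 fibroblast markers 3 rose and 2 fell in NTera-2 and 2 rose and 1 fell in 2102Ep, with summed signals of 2874 to 3125 on siSOX2 and 3811 to 4167 on control arrays of NTera-2, and 3163 to 3660 against 3200 to 3694 in 2102Ep. Of 9 leukocyte markers measured 0 passed limma's test in NTera-2, also at an unadjusted p of 0.05, and 1 fell in 2102Ep, with sums of 817.4 to 984.8 against 923.3 to 1062 and of 1018 to 1185 against 1016 to 1168. PTPRC, which defines leukocytes, averaged 4.10 to 4.30 in every group. Other markers of this list were brighter, CD68 at 7.83 to 8.905 and NKG7 at 7.27 to 8.31 over the 12 arrays. In 2102Ep CD68 had the highest change of the list, 0.427, which did not pass the adjusted p. Of 9 endothelial markers 1 fell in NTera-2, and 1 rose and 2 fell in 2102Ep, with sums of 1951 to 2326 against 2039 to 2414 and of 1548 to 1656 against 1874 to 2056. The part of such other cells in the results on single genes was not tested. The shares that passed the adjusted p in NTera-2 and 2102Ep were 46.2% and 69.2% for embryonal carcinoma markers, SOX2 included. For fibroblast markers they were 50% and 30%. They were 0% and 11.1% for leukocyte and 11.1% and 33.3% for endothelial markers. Of all genes 4.94% passed in NTera-2 and 12.7% in 2102Ep. Arrays of a group correlated at 0.9825 to 0.9943 over probe sets.

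Some arrays stood apart for the genes studied here. NTera-2 siSOX2 replicate 3 held the highest value of its group for 27 of the 32 genes and also had the highest median signal of the 12 arrays (7.583, the others 7.433 to 7.559). NTera-2 siSOX2 replicate 2 held the lowest value for 26 genes, NTera-2 control replicate 1 for 23 and 2102Ep siSOX2 replicate 3 for 22. Where leaving out an array changed the call of a gene, the value without it is given.

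The promoters of the 4 genes that changed by at least 2-fold after siSOX2 are shown because the core of the hypoxia response element, ACGTG or GCGTG, can be read in them directly. The 250 bases before the transcription start come from RefSeq, assembly GRCh38.p14, read 5′ to 3′ on the strand of the gene. BNIP3 lies at chr10:131981924-131982173, minus strand. P4HA1 lies at chr10:73096867-73097116, minus strand. ALDOC lies at chr17:28576896-28577145, minus strand. ADM lies at chr11:10304823-10305072, plus strand. Capitals mark each match to the core on either strand, so that the opposite strand reads CACGT or CACGC, and CACGTG holds a match on both strands, which overlap.
BNIP3: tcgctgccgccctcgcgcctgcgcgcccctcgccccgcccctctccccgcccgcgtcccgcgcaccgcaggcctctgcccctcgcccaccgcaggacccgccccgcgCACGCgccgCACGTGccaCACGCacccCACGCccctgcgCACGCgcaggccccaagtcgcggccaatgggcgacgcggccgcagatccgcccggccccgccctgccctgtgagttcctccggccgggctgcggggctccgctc
P4HA1: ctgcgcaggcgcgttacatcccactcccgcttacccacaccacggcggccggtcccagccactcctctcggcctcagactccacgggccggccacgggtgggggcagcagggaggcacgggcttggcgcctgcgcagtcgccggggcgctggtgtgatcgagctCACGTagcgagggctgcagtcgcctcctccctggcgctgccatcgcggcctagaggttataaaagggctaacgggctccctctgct
ALDOC: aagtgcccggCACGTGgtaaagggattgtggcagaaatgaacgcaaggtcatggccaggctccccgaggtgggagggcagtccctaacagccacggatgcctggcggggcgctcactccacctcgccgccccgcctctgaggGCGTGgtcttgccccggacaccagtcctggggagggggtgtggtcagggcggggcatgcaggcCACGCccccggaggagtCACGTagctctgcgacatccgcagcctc
ADM: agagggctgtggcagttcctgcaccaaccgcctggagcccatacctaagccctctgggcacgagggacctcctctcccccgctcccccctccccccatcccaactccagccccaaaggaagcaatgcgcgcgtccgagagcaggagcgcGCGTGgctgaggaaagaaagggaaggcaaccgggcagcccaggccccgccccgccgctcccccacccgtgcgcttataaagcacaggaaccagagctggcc
BNIP3 held 6 matches, all between 104 and 143 bases before the start and 5 of them on the opposite strand, and ALDOC held 5, while P4HA1 and ADM held 1 each.

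Promoters of 31 of the 36 genes were in the RefSeq table; those of SLC2A3, SLC16A1, BNIP3L, VEGFA and NDRG1 were not. In the window of 250 bases before to 50 after the start, 23 of the 31 held at least 1 match (74.2%), as did 56.7% of the 14230 promoters of genes measured on the array. Restricted to the 250 bases before the start, the shares were 64.5% and 51.1%. By role, in the longer window, 11 of 16 glycolysis enzymes, 3 of 4 regulators, 1 of 2 carriers, 6 of 7 hypoxia targets and both hypoxia-inducible factors held a match. The regulator without a match was PDK1, in either window. The median GC content was 69.7% in these 31 promoters and 63.0% in those of all measured genes, and its part in the share with a match was not tested. The E-box CACGTG, which other factors share, was present in 4 of the 31 (12.9%) and in 8.88% of the measured genes. These letters describe the sequence, and binding was not measured here.

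**Figure D1:**
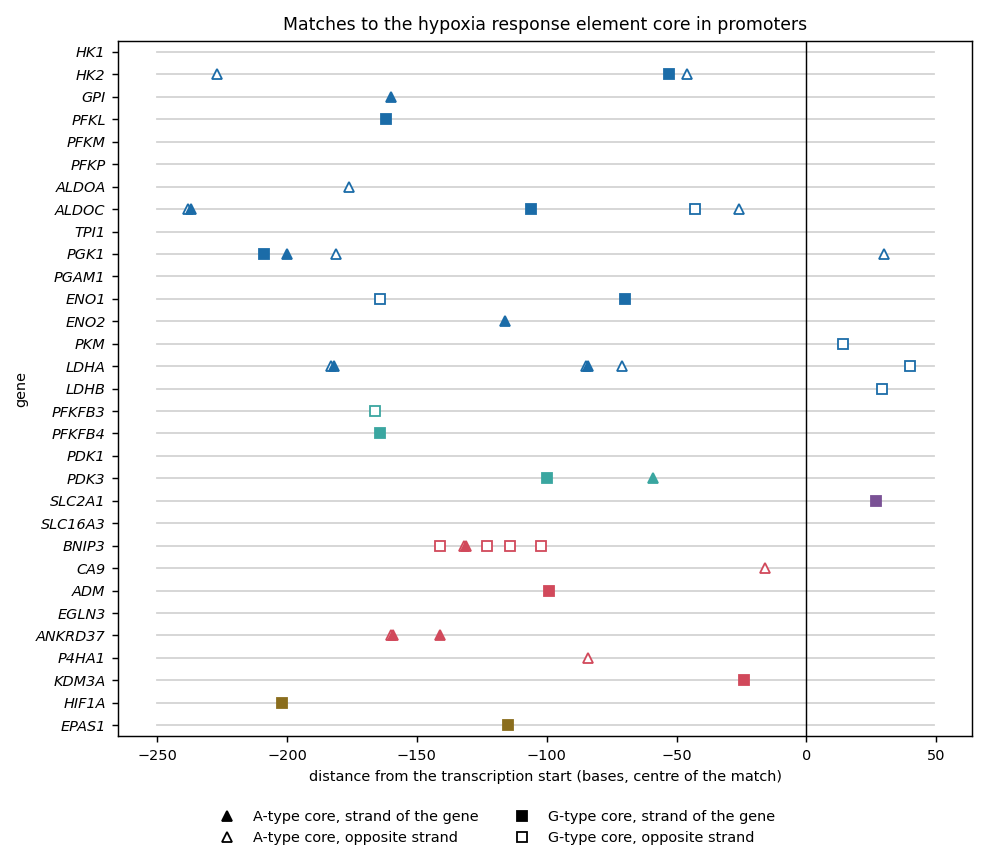
Positions of matches to the hypoxia response element core in the promoters of the 31 genes, as distance in bases from the transcription start (0, vertical line); triangles are ACGTG, squares GCGTG, filled on the strand of the gene and open on the opposite strand. BNIP3 carries 6 matches and ALDOC 5, while the grey lines without a mark are promoters with no match in this window.

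The first comparison asked what SOX2 silencing did to these genes in 2102Ep, the line with the stronger fall of SOX2 RNA. The prevailing movement was downward, and 6 of 9 hypoxia targets and 5 of 15 enzymes took part in it. A gene was said to rise or fall where limma's Benjamini-Hochberg adjusted p, taken over all 18404 genes of the comparison, was 0.05 or less. In 2102Ep 13 genes fell and 4 rose, together 53.1% of the 32, where 12.7% of all genes passed (5.9% lower and 6.76% higher). Of these, 3 fell by at least 2-fold and 0 rose as far (9.38%), against 1.98% of all genes (0.826% lower and 1.15% higher). On 18 genes every siSOX2 array lay below every control array and on 5 every one lay above, while such a separation occurred for 25.2% of all genes, 12.6% in each direction. The median change was -0.30 on the log2 scale, beside -0.01 for all genes, and 24 of the 32 changes were below 0. Most of the listed genes are bright, and among the 9202 genes above the median signal 16.4% passed, with 16 of the 30 listed genes in that range. Without 2102Ep siSOX2 replicate 3 the number that passed was 11, and 11 of the 17 passed whichever of the 12 arrays was left out. In a mixed population of cells, fewer cells that express a gene and less RNA per cell cannot be told apart.

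**Figure D2:**
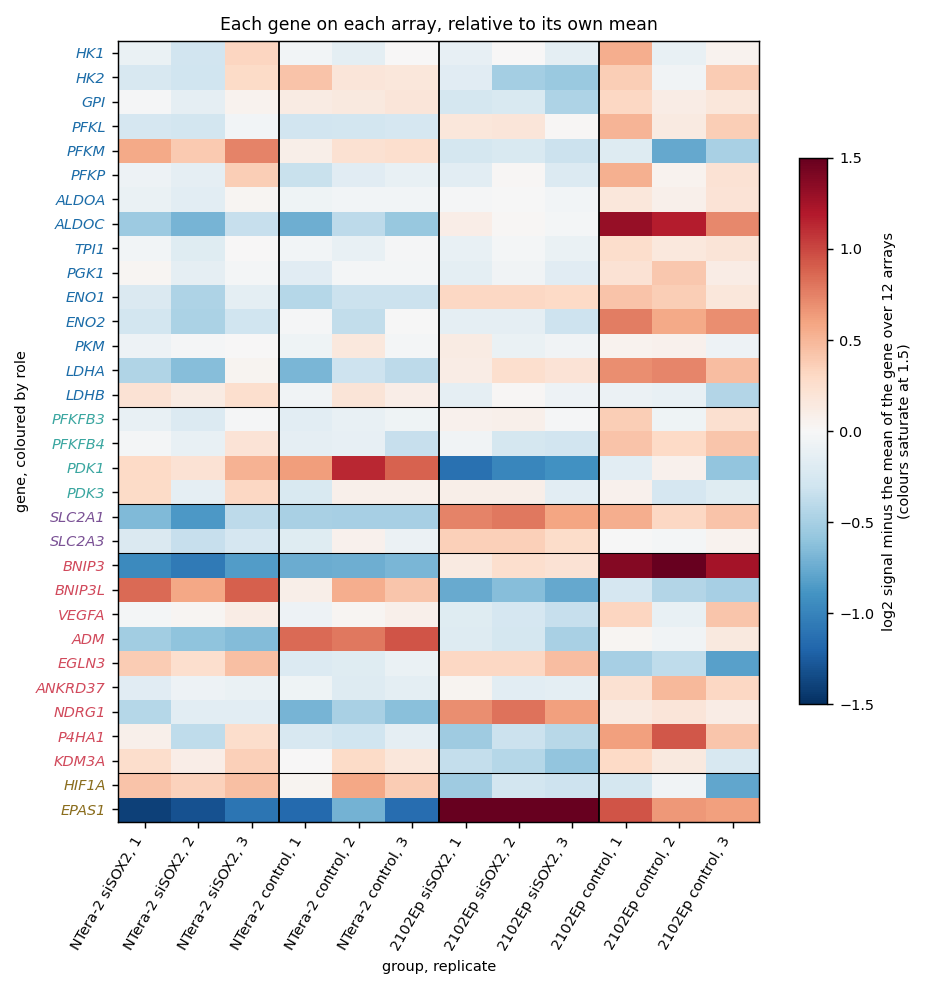
Log2 signal of each of the 32 genes on each of the 12 arrays, as the difference from the mean of that gene over all arrays (red higher, blue lower, saturating at 1.5); genes are grouped by role from enzymes at the top to hypoxia-inducible factors at the bottom. BNIP3, ALDOC and P4HA1 are reddest in 2102Ep control, ADM in NTera-2 control and EPAS1 in both 2102Ep groups.

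Among the 15 glycolysis enzymes measured in 2102Ep, 5 fell and 0 rose, and 13 of the 15 changes were below 0 with a median of -0.28. ALDOC, the brain form of aldolase, which splits the phosphorylated hexose, was the enzyme that fell by at least 2-fold. Its log2 signals were 10.30, 10.22 and 10.17 on siSOX2 arrays, against 11.51, 11.38 and 10.93 on control arrays. All 3 siSOX2 arrays lay below the lowest control array, and the level was 48.6% of control (39.4 to 59.8, adjusted p = 5.25e-05). The fall was 0.93 on the log2 scale without control replicate 1 and 0.99 without control replicate 2, so that ALDOC then passed the adjusted p but not 2-fold. ENO2, the enolase of neurons, had 10.58, 10.58 and 10.41 on siSOX2 arrays, against 11.48, 11.28 and 11.42 on control arrays. These groups were far apart as well, and ENO2 was at 54.8% of control (46.3 to 64.9, adjusted p = 4.15e-05), with an adjusted p of at most 0.000528 when an array was left out.

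HK2, the inducible hexokinase that traps glucose in the cell, had 9.29, 8.96 and 8.91 on 2102Ep siSOX2 arrays, against 9.84, 9.42 and 9.85 on control arrays. The groups did not overlap, though control replicate 2 came close to siSOX2 replicate 1, and the level was 63.9% of control (50.6 to 80.8, adjusted p = 0.0108). Without siSOX2 replicate 2 or 3 the adjusted p was 0.0523 and 0.059. GPI, the isomerase that follows hexokinase, fell by 0.51 on the log2 scale (adjusted p = 0.00219) and passed whichever array was left out, while PGK1, the first enzyme of the pathway to return ATP, fell by 0.37 (adjusted p = 0.026). The PGK1 call was lost without control replicate 2 (adjusted p = 0.0986), siSOX2 replicate 1 (0.0871) or siSOX2 replicate 3 (0.0972).

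The other 10 enzymes did not pass in 2102Ep. Of these, TPI1, PFKP, ENO1 and PKM are named after their values were seen. LDHA, which makes lactate from pyruvate, had 11.66, 11.80 and 11.75 on siSOX2 arrays, against 12.25, 12.28 and 12.01 on control arrays. The groups did not overlap, and the estimate was 73.4% of control (58.9 to 91.5) with an adjusted p of 0.0634. This value sat at the threshold: it was 0.0398 without 2102Ep control replicate 3, 0.0426 without NTera-2 siSOX2 replicate 2 and 0.0192 without NTera-2 siSOX2 replicate 3, and up to 0.189 without other arrays. TPI1, the triose phosphate isomerase, had changes of -0.28 and -0.75 on its 2 probe sets, and the brighter one, used here, gave an adjusted p of 0.0638. It passed with the mean of its probe sets (-0.51, adjusted p = 0.00415), with an intensity trend in the fit (0.0175) and among brighter genes only (0.0392). PFKP, the platelet form of phosphofructokinase, had a change of -0.39 (adjusted p = 0.099), which reached 0.0438 without control replicate 2. By contrast ENO1 and PKM, the main enolase and the pyruvate kinase, had changes of -0.02 each, with 95% intervals of -0.25 to 0.21 and -0.24 to 0.19. HK1, PFKL, PFKM, ALDOA and LDHB had changes between -0.25 and 0.21.

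Of the 4 regulators 2 fell and 0 rose in 2102Ep. PDK1, the kinase that switches off pyruvate dehydrogenase and so keeps pyruvate out of the mitochondria, had 8.02, 8.16 and 8.24 on siSOX2 arrays, against 8.99, 9.21 and 8.55 on control arrays. Its level was 58.4% of control (46.4 to 73.4, adjusted p = 0.00216), with control replicate 3 the nearest to the siSOX2 arrays. PFKFB4, which sets the fructose bisphosphate that drives phosphofructokinase, had 7.55, 7.34 and 7.32 against 8.03, 7.91 and 8.02. The groups were separate and the level was 66.8% of control (56.7 to 78.8, adjusted p = 0.00154). Neither call was lost when an array was left out. Their relatives PFKFB3 and PDK3 had changes between -0.15 and 0.12 and did not pass.

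The 2 glucose carriers went the other way. SLC2A3, the high-affinity glucose carrier GLUT3, had 13.79, 13.79 and 13.70 on 2102Ep siSOX2 arrays, against 13.43, 13.39 and 13.48 on control arrays. It was at 125% of control (109 to 145, adjusted p = 0.0349), the smallest change among the genes that passed in this line. The change stayed between 0.31 and 0.36 when an array was left out, but the adjusted p rose to between 0.0585 and 0.116 when any of the 3 siSOX2 arrays, control replicates 1 and 2 of this line or NTera-2 control replicate 3 was dropped. SLC2A1, the widespread carrier GLUT1, had 13.06, 13.12 and 12.92 against 12.86, 12.63 and 12.75. These groups did not overlap either, but the estimate of 122% of control (102 to 145) did not pass (adjusted p = 0.147).

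Of the 9 hypoxia targets measured in 2102Ep 6 fell and 2 rose, with a median change of -0.43. BNIP3, a mitochondrial protein that promotes removal of mitochondria, fell furthest of the 32 genes. It had 11.32, 11.43 and 11.40 on siSOX2 arrays, against 12.56, 12.98 and 12.43 on control arrays. The siSOX2 arrays were tightly grouped and far below every control array, and the level was 41.5% of control (34.6 to 49.7, adjusted p = 1.25e-06). This was the call at 2-fold that held whichever array was left out.

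P4HA1, a prolyl hydroxylase of collagen, had 7.81, 8.02 and 7.92 on 2102Ep siSOX2 arrays, against 8.95, 9.26 and 8.75 on control arrays. The groups were well separated and the level was 47.6% of control (38.1 to 59.4, adjusted p = 7.95e-05), a fall of 0.93 on the log2 scale without control replicate 2. KDM3A, a histone demethylase, fell by 0.53 (adjusted p = 0.0127), VEGFA, the main growth factor of vessels, by 0.47 (0.0166), ANKRD37, an ankyrin repeat protein, by 0.43 (0.00847), and the vasodilator peptide ADM by 0.35 (0.0342). ANKRD37 passed whichever array was left out. KDM3A was lost without 2102Ep control replicate 1 (adjusted p = 0.069) or siSOX2 replicate 3 (0.0715). VEGFA was lost without control replicate 1 (0.0684), control replicate 3 (0.0725) or siSOX2 replicate 3 (0.0779). ADM was lost without 2102Ep control replicate 1 (0.0662) or 3 (0.105), siSOX2 replicate 2 (0.0642) or 3 (0.187), or NTera-2 control replicate 3 (0.0513). BNIP3L, the relative of BNIP3, named after its values were seen, had a change of -0.32 that did not pass (adjusted p = 0.126).

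EGLN3, a prolyl hydroxylase that acts on hypoxia-inducible factors and is itself one of their targets, rose in 2102Ep. It had 9.66, 9.65 and 9.81 on siSOX2 arrays, against 8.84, 8.96 and 8.53 on control arrays. No siSOX2 array came within 0.5 log2 units of a control array, and the level was 190% of control (160 to 225, adjusted p = 2.03e-05). Its rise was just under 2-fold and passed that line, at 1.02 on the log2 scale, without control replicate 2. NDRG1, a stress and differentiation gene, rose by 0.57 (adjusted p = 0.0012) and kept its call whichever array was left out.

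The hypoxia-inducible factors themselves diverged in 2102Ep. EPAS1, which encodes HIF2A, had 9.97, 10.01 and 9.94 on siSOX2 arrays, against 9.38, 9.09 and 9.06 on control arrays. It was at 174% of control (143 to 211, adjusted p = 0.000373), and the groups lay well apart. HIF1A had 10.81, 11.06 and 11.03, against 11.08, 11.29 and 10.56. Here the groups overlapped, and the estimate of 99.2% of control had an interval of 78.2 to 126% (adjusted p = 0.982). With 3 arrays a group, that interval holds both no change and a change of either sign up to its ends.

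**Figure D3:**
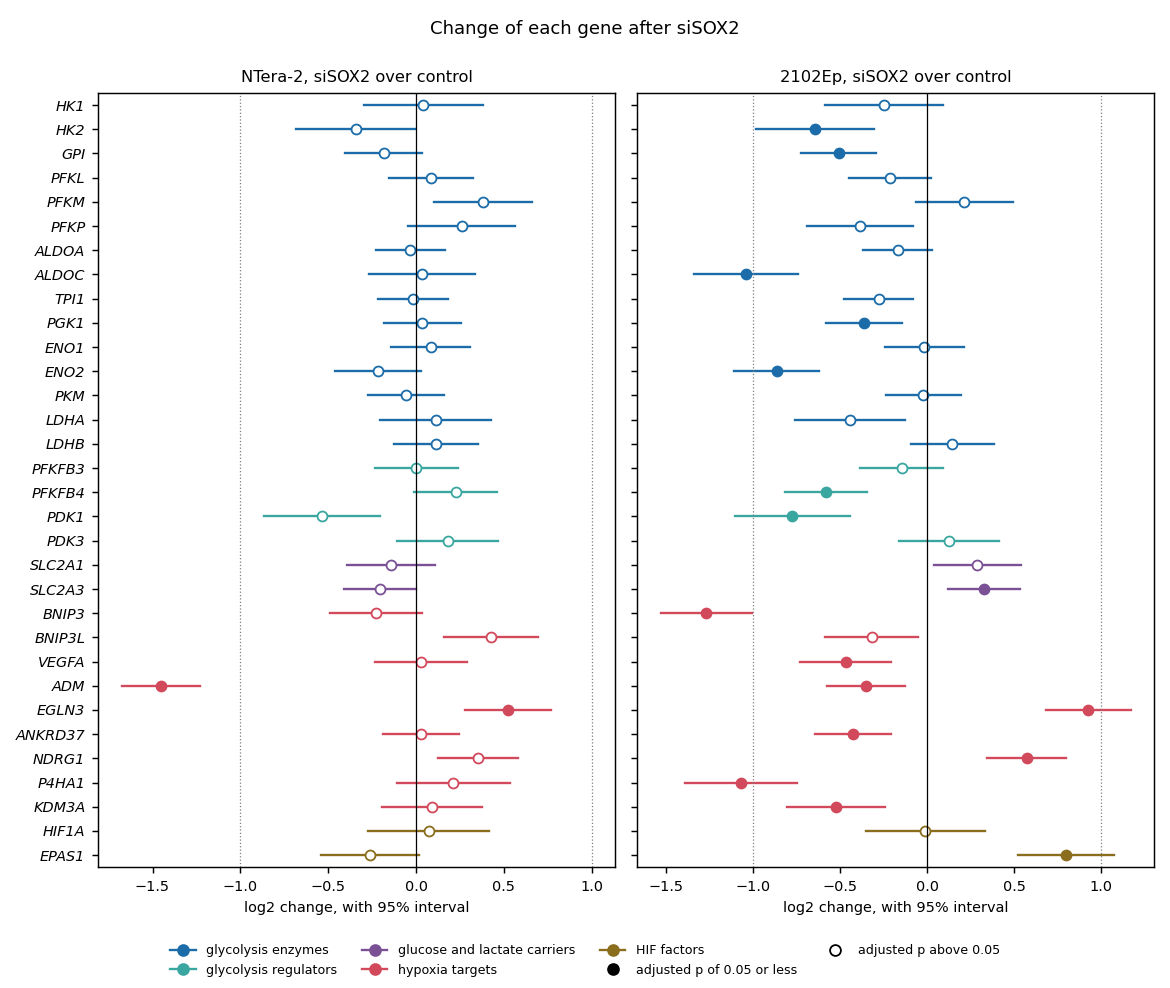
Log2 change of each of the 32 genes after siSOX2 with its 95% interval, in NTera-2 on the left and 2102Ep on the right, coloured by role; filled points passed an adjusted p of 0.05 or less and dotted lines mark 2-fold. In 2102Ep 17 points are filled, most left of 0, while in NTera-2 ADM on the left and EGLN3 on the right of 0 are filled.

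The same comparison in NTera-2 showed little movement of glycolysis and a single large change among hypoxia targets. Of the 32 genes 1 rose, EGLN3, and 1 fell, ADM, together 6.25% against 4.94% of all genes (2.96% higher and 1.98% lower). ADM was also the gene called at 2-fold, where 0.657% of all genes were (0.348% lower). The share that passed is near that of all genes, and the median change of the 32 was 0.03, beside 0.04 for all genes. In 5 genes every siSOX2 array lay above and in 5 below every control array, against 14.2% of all genes above, 7.06% below and 21.3% in either direction. At an unadjusted p of 0.05 or less 7 of the 32 passed. SOX2 RNA was less reduced in this line, and its part in the smaller number of changes was not tested.

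ADM had 8.59, 8.51 and 8.46 on NTera-2 siSOX2 arrays, against 9.96, 9.91 and 10.05 on control arrays. Each group spanned less than 0.2 log2 units with a wide gap between them, and the level was 36.5% of control (31.3 to 42.6, adjusted p = 1.7e-07). The change was between -1.49 and -1.41 on the log2 scale when any array was left out. EGLN3 had 9.72, 9.59 and 9.79, against 9.13, 9.15 and 9.25. It was at 144% of control (121 to 170, adjusted p = 0.0109), and the groups did not overlap, but without NTera-2 siSOX2 replicate 3, the array with high values throughout, the change was 0.48 with an adjusted p of 0.0581.

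Of the 15 glycolysis enzymes 0 passed limma's adjusted p in NTera-2, and HK2 and PFKM had an unadjusted p of 0.05 or less, with changes from -0.34 to 0.38 and a median of 0.04. PFKM, the muscle form of phosphofructokinase, had the smallest adjusted p, 0.134, with 10.11, 9.93 and 10.29 on siSOX2 arrays, against 9.63, 9.77 and 9.79 on control arrays. The groups did not overlap. HK2 had 9.23, 9.17 and 9.75, against 9.89, 9.65 and 9.64, which overlap through siSOX2 replicate 3, and was at 78.9% of control (62.4 to 99.7, adjusted p = 0.331). ALDOC had 9.66, 9.50 and 9.86, against 9.47, 9.81 and 9.64. These arrays were mixed, at 102% of control (83.1 to 126, adjusted p = 0.963). LDHA had 11.09, 10.90 and 11.59, against 10.86, 11.24 and 11.15, with the widest spread on the siSOX2 arrays and an estimate of 108% of control (86.7 to 135, adjusted p = 0.833). ENO2 had 10.44, 10.25 and 10.42, against 10.70, 10.35 and 10.71, an overlap through control replicate 2 and a change of -0.22 (adjusted p = 0.421).

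PDK1 came closest among the regulators in NTera-2. It had 9.45, 9.36 and 9.67 on siSOX2 arrays, against 9.77, 10.27 and 10.03 on control arrays, at 69.0% of control (54.9 to 86.7) with an adjusted p of 0.0603. The groups did not overlap, and the adjusted p was 0.0311 without 2102Ep control replicate 2, 0.0177 without 2102Ep control replicate 3 and 0.0334 without NTera-2 control replicate 1, but 0.251 at the most. PFKFB4 had 7.58, 7.49 and 7.81, against 7.47, 7.48 and 7.26, with an estimate of 117% of control (99.1 to 138, adjusted p = 0.379). For the carriers, SLC2A3 had 13.20, 13.08 and 13.18 against 13.25, 13.50 and 13.34, and SLC2A1 had 11.66, 11.46 and 11.94 against 11.84, 11.83 and 11.82. Neither carrier passed, and their changes of -0.21 and -0.14 had adjusted p of 0.341 and 0.689.

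The remaining hypoxia targets did not pass in NTera-2. BNIP3 had 10.23, 10.12 and 10.35 on siSOX2 arrays, against 10.44, 10.45 and 10.50 on control arrays, a small separation with an estimate of 85.4% of control (71.2 to 102, adjusted p = 0.442). P4HA1 had 8.41, 7.96 and 8.60 against 8.10, 8.03 and 8.20, which overlap, and was at 116% (92.6 to 145, adjusted p = 0.62). BNIP3L and NDRG1, named after their values were seen, had changes of 0.43 (adjusted p = 0.0679) and 0.35 (0.0744). The first reached 0.0433 without NTera-2 control replicate 2 and 0.0373 without NTera-2 siSOX2 replicate 2, and the second 0.0426 without NTera-2 siSOX2 replicate 1. EPAS1 had 7.03, 7.13 and 7.34 against 7.27, 7.72 and 7.30, and HIF1A 11.77, 11.68 and 11.79 against 11.38, 11.92 and 11.73. Both overlapped between the groups, with changes of -0.26 (adjusted p = 0.387) and 0.07 (0.914).

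**Figure D4:**
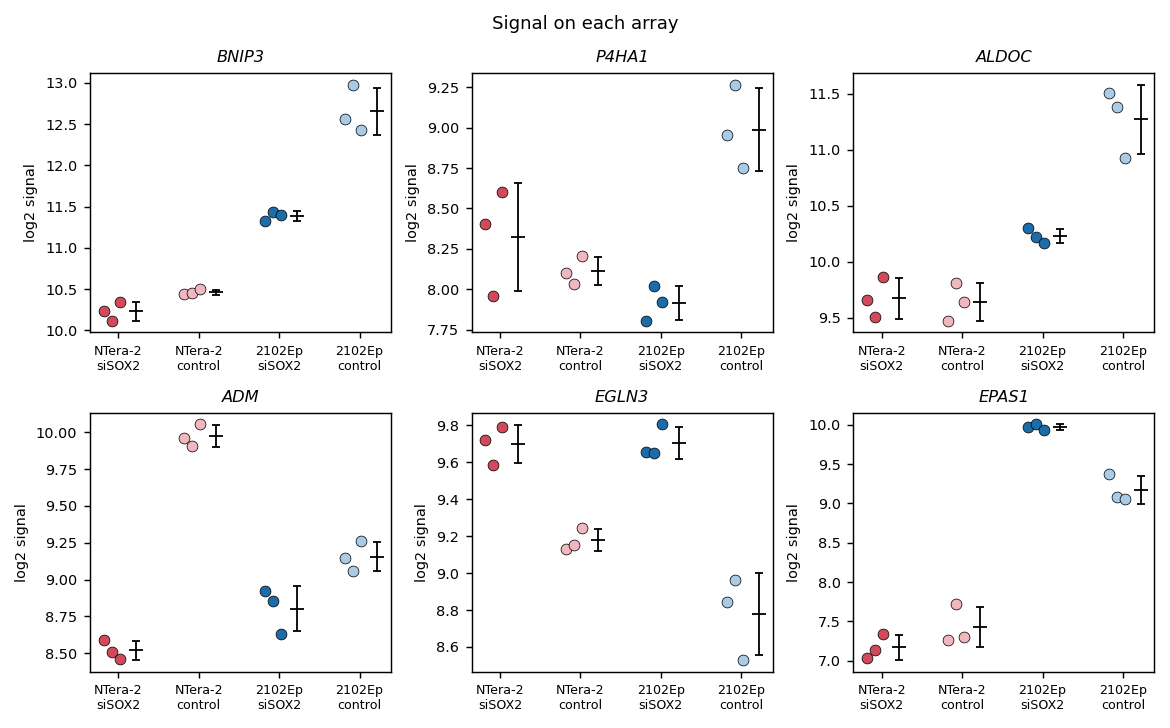
Log2 signal of BNIP3, P4HA1, ALDOC, ADM, EGLN3 and EPAS1 on each array, a panel per gene with its own scale, in the order NTera-2 siSOX2, NTera-2 control, 2102Ep siSOX2 and 2102Ep control; bars give the mean and SD (n = 3). BNIP3, P4HA1 and ALDOC are lower on 2102Ep siSOX2 than on 2102Ep control arrays, ADM drops most in NTera-2, EGLN3 is higher after siSOX2 in both lines and EPAS1 in 2102Ep.

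Whether the responses differed was tested directly, as the change in NTera-2 minus the change in 2102Ep. For 9 of the 32 genes it did (28.1%, against 5.2% of all genes), 6 with a positive and 3 with a negative difference (2.67% and 2.53% of all genes), and for 5 of these by at least 2-fold (15.6%, against 1.66%). The median difference was 0.28, beside 0.05 for all genes, and 24 of the 32 were above 0. Among the 9202 brighter genes 6.17% differed, with 8 of the 30 listed genes there. Other lists leaned to positive differences as well: 26 of 26 genes of the respiratory chain (median 0.14), 16 of 20 of pyruvate entry and the citric acid cycle (0.09) and 11 of 13 embryonal carcinoma markers (0.32). Of the leukocyte markers 3 of 9 were above 0. P4HA1 differed by 1.28 (95% interval 0.83 to 1.74, adjusted p = 0.00118), ALDOC by 1.08 (0.65 to 1.5, adjusted p = 0.00312) and BNIP3 by 1.04 (0.67 to 1.41, adjusted p = 0.00122). All 3 fell in 2102Ep and did not pass in NTera-2. PFKFB4 differed by 0.81 (0.47 to 1.14, adjusted p = 0.00478), ENO2 by 0.65 (0.30 to 0.99, adjusted p = 0.0254) and BNIP3L by 0.75 (0.37 to 1.13, adjusted p = 0.0188). For BNIP3L the estimates had opposite signs, positive in NTera-2 and negative in 2102Ep, although neither passed by itself.

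In the other direction, ADM differed by -1.10 (-1.42 to -0.79, adjusted p = 0.000147), with its larger fall in NTera-2. EPAS1 differed by -1.06 (-1.45 to -0.66, adjusted p = 0.00179) and SLC2A3 by -0.53 (-0.83 to -0.24, adjusted p = 0.0301), both of which rose in 2102Ep and did not pass in NTera-2. EGLN3, which rose in both lines, had a difference of -0.40 (-0.75 to -0.06) that did not pass (adjusted p = 0.223), and PDK1 had 0.24 (-0.23 to 0.71, adjusted p = 0.753), so that its interval holds both no difference and one of 0.71. LDHA had 0.56 (0.11 to 1.0, adjusted p = 0.183) and HIF1A 0.08 (-0.40 to 0.57, adjusted p = 0.954).

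The 6 differences of ADM, ALDOC, BNIP3, EPAS1, P4HA1 and PFKFB4 passed the adjusted p whichever array was left out, and those of ADM and P4HA1 also kept 2-fold. The difference of ALDOC was 0.96 without 2102Ep control replicate 1, 0.99 without NTera-2 control replicate 1 and 0.98 without NTera-2 siSOX2 replicate 3. That of BNIP3 was 0.88 without 2102Ep control replicate 2 and 0.98 without NTera-2 siSOX2 replicate 3, and that of EPAS1 was -0.999 without 2102Ep control replicate 3, -0.91 without NTera-2 control replicate 2 and -0.99 without NTera-2 siSOX2 replicate 1. Without NTera-2 siSOX2 replicate 3, 3 genes differed by 2-fold. The 3 remaining calls were less firm. ENO2 was lost without 5 arrays, among them 2102Ep siSOX2 replicate 3 (adjusted p = 0.0808), 2102Ep control replicate 1 (0.0633), NTera-2 control replicate 2 (0.0743) and NTera-2 siSOX2 replicates 1 (0.0737) and 3 (0.0604). BNIP3L was lost without 2102Ep control replicate 1 (0.0521), 2102Ep siSOX2 replicate 3 (0.053), NTera-2 control replicate 1 (0.0552) and NTera-2 siSOX2 replicates 1 (0.0577) and 3 (0.0551). SLC2A3 was lost without 8 of the 12 arrays, namely 2102Ep control replicate 1, NTera-2 control replicates 2 and 3, NTera-2 siSOX2 replicates 1 and 2 and each 2102Ep siSOX2 replicate, with adjusted p of 0.0502 to 0.0946. Another 3 differences, named after their values were seen, came to pass without 1 array of 2102Ep control. PFKP had 0.65 (adjusted p = 0.0848), and 0.75 (0.0387) without replicate 2. VEGFA had 0.50 (adjusted p = 0.138), and 0.66 (0.00915) without replicate 2. KDM3A had 0.62 (adjusted p = 0.0742), and 0.77 (0.00878) without replicate 3.

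**Figure D5:**
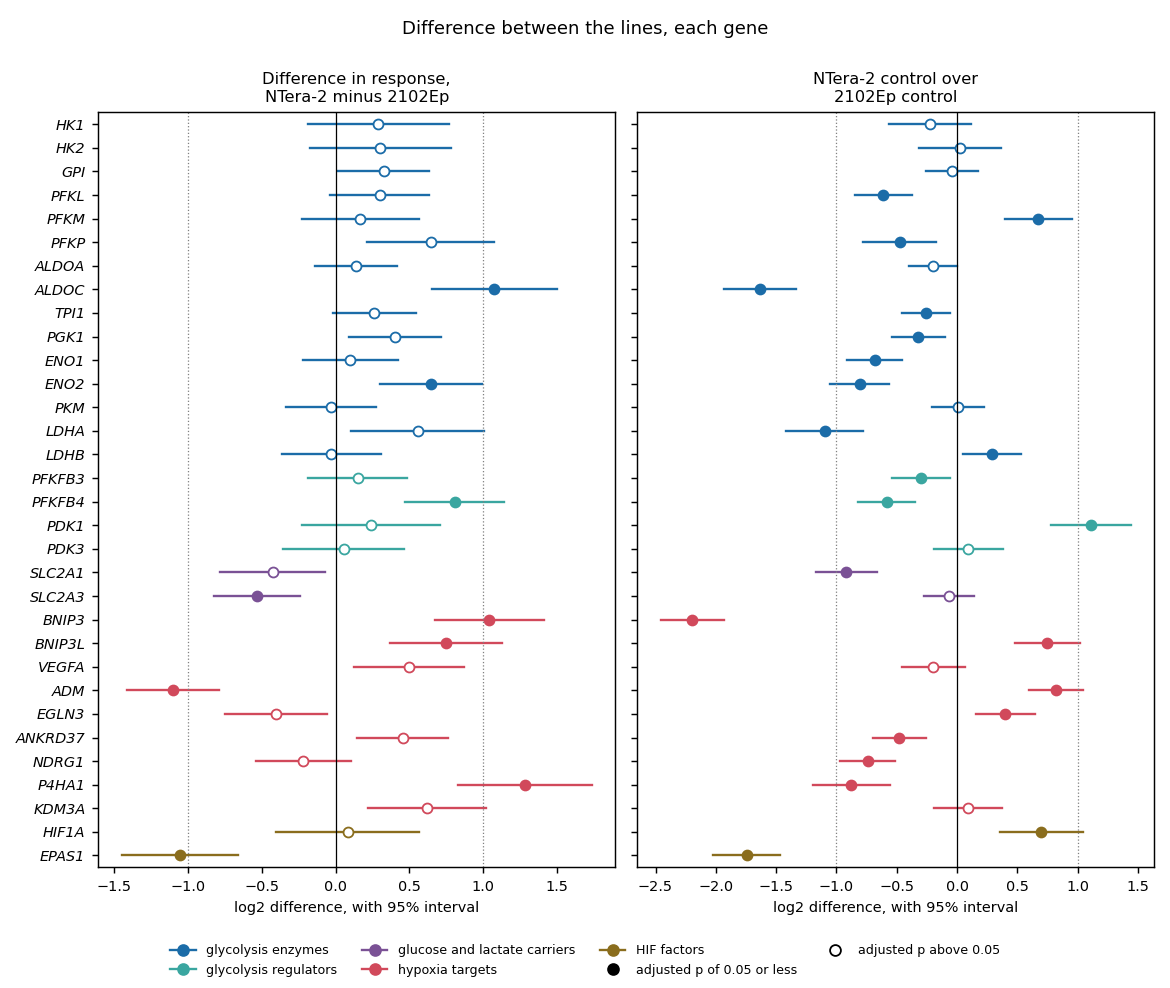
Difference between the lines for each of the 32 genes with its 95% interval, on the log2 scale: on the left the change after siSOX2 in NTera-2 minus that in 2102Ep, on the right NTera-2 control over 2102Ep control; filled points passed an adjusted p of 0.05 or less and dotted lines mark 2-fold. On the left 9 points are filled, P4HA1 at 1.28 and ADM at -1.10 outermost, and on the right 23 are, with BNIP3 at -2.19 and PDK1 at 1.11.

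The lines also started from different levels. Between control arrays 7 genes were higher and 16 lower in NTera-2 (71.9%), and 42.4% of all genes differed (21% higher and 21.5% lower). Among the 9202 brighter genes 55.5% differed, with 21 of the 30 listed genes there. At 2-fold 1 gene was higher and 4 were lower (15.6%, against 7.76% of all genes, 4.49% higher and 3.28% lower). NTera-2 control arrays had 21.8% of the 2102Ep control level of BNIP3 (18.2 to 26.2, adjusted p = 4.11e-10), 29.9% of EPAS1 (24.6 to 36.2, adjusted p = 1.55e-08), 32.3% of ALDOC (26.2 to 39.7, adjusted p = 8.81e-08) and 46.7% of LDHA (37.5 to 58.2, adjusted p = 1.43e-05). PDK1 was the exception, at 216% (172 to 271, adjusted p = 1.91e-05). The arrays given above did not overlap between the control groups for any of these 5 genes, as was the case for 50.5% of all genes. BNIP3, ALDOC, P4HA1 and ENO2 were thus lower in NTera-2 before the knock-down, P4HA1 by 0.88 (adjusted p = 0.000163) and ENO2 by 0.81 (adjusted p = 2.35e-05), and on 2102Ep siSOX2 arrays BNIP3 and ALDOC stayed above every NTera-2 array. P4HA1 did not: its 2102Ep siSOX2 arrays at 7.81 to 8.02 lay below the NTera-2 control arrays at 8.03 to 8.20. The comparison shares its control arrays with the tests of the response, so it is no separate support for them.

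Among the enzymes 8 were lower and 2 higher in NTera-2 control cells. Besides ALDOC and LDHA, the log2 differences were -0.81 for ENO2, -0.68 for ENO1, -0.61 for PFKL, -0.48 for PFKP, -0.32 for PGK1 and -0.26 for TPI1, and 0.67 for PFKM and 0.29 for the heart form of lactate dehydrogenase, LDHB. Muscle phosphofructokinase was therefore higher in NTera-2, whereas the liver and platelet forms were lower. The glucose carrier SLC2A1 was lower by 0.92 and PFKFB4 by 0.58. Among hypoxia targets ADM, BNIP3L and EGLN3 were higher by 0.82, 0.75 and 0.40, while NDRG1 and ANKRD37 were lower by 0.74 and 0.48. The 2 hypoxia-inducible factors were opposed, HIF1A being higher by 0.70 (adjusted p = 0.00214) and EPAS1 lower by 1.74. The calls of PFKP (adjusted p up to 0.0769), PGK1 (up to 0.0771), TPI1, LDHB, PFKFB3 and EGLN3 (0.0582) were lost without 1 or more single arrays. For PFKP these were control replicate 1 of either line, for PGK1 2102Ep control replicate 2 and NTera-2 control replicate 1, and for EGLN3 2102Ep control replicate 3. TPI1 was lost without 2102Ep control replicate 1 or 3 and without any NTera-2 control replicate, with adjusted p up to 0.116. LDHB and PFKFB3 (-0.30) were lost without 9 and 7 of the 12 arrays, with adjusted p up to 0.227 and 0.176. At 2-fold, LDHA was at -0.99 without NTera-2 control replicate 1, and PDK1 at 0.93 without 2102Ep control replicate 3 and 0.99 without NTera-2 control replicate 2. VEGFA, named after its values were seen, had -0.20 (adjusted p = 0.219), and -0.36 (0.011) without 2102Ep control replicate 2.

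Genes of the same pathways outside the list were counted for context, and their calls were not followed through the alternatives. Of 35 other hypoxia targets 5 rose and 3 fell in NTera-2 (22.9%, against 4.94% of all genes). In 2102Ep 8 rose and 8 fell (45.7%, against 12.7% of all genes), as many rising as falling. The median changes were 0.15 in NTera-2 and -0.14 in 2102Ep. The adenylate kinase AK4 fell in both lines, with changes of -2.99 in NTera-2 and -1.7 in 2102Ep, but its dimmer probe set gave -0.60 and -0.62. The calcium regulator STC2 fell by 0.85 in NTera-2 and 1.64 in 2102Ep, and the HIF antagonist CITED2 rose by 1.01 and 0.99. The carbonic anhydrase CA12 had 9.99, 9.81 and 9.80 on 2102Ep siSOX2 arrays, against 7.23, 7.19 and 7.28 on control arrays, a rise of 2.64 (adjusted p = 1.0e-11). DDIT4, an inhibitor of growth signalling, fell by 0.98 in 2102Ep.

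Of 32 other genes of glycolysis and sugar metabolism 2 rose and 2 fell in NTera-2 (12.5%) and 1 rose and 6 fell in 2102Ep (21.9%). Of all genes 4.94% passed in NTera-2 and 12.7% in 2102Ep. The gluconeogenic enzyme FBP1 fell by 1.02 in 2102Ep, and UGP2, which makes the sugar donor for glycogen, fell by 0.48 in NTera-2 and 0.74 in 2102Ep. PDK2, a relative of PDK1, rose by 0.90 in NTera-2 and 0.50 in 2102Ep, opposite in sign to PDK1. GAPDH, the enzyme often taken as a reference, had changes of -0.09 (95% interval -0.28 to 0.11) in NTera-2 and -0.04 (-0.24 to 0.15) in 2102Ep. Of 20 genes of pyruvate entry and the citric acid cycle 0 passed in NTera-2 (1 at an unadjusted p of 0.05) and 1 in 2102Ep (5%), SUCLA2, which fell by 0.75. Of 26 genes of the respiratory chain 0 passed in NTera-2 (2 at an unadjusted p of 0.05) and 2 fell in 2102Ep (7.69%), NDUFV1 by 0.47 and ATP5F1A by 0.33, although 24 of the 26 changes there were below 0 (median -0.18). Of 13 regulators of hypoxia-inducible factors, CITED2, already counted among the other hypoxia targets, rose in both lines and MYC fell by 0.61 in NTera-2. These were 15.4% of this list in NTera-2, against 4.94% of all genes, and 7.69% in 2102Ep, below the 12.7% of all genes.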

How the data were processed

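RNA from 12 cell samples was hybridised to the Affymetrix Human Gene 1.0 ST array. The deposited log2 values were made by the authors with robust multi-array averaging in the manufacturer's software, with no version stated. Their log base was inferred from the range of the values, 1.57 to 14.98, and the submitters' processing notes also name limma. Such averaging compresses changes of dim genes.

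Only probe sets with 1 gene in the platform annotation were named (19158 of 32321), with current symbols from RefSeq (18376 of 18404 genes). Where a gene had several, the probe set with the highest mean was used. All 12 arrays were fitted with a mean per group in limma 3.58.1 under R 4.3.3, and p-values were adjusted over all genes of each of 4 comparisons. The sources call the replicates biological; separate cultures are not described, so p-values measure the spread between these arrays. With 3 arrays in each group, the smallest two-sided p an exact permutation can reach is 0.1. The fit was tested on simulated data. Alternatives were a fit blocked by replicate number, a fit of the compared groups by themselves, brighter genes only, median centring, quantile normalization again, the mean of probe sets, every probe set as a feature, an intensity trend and leaving out each array.

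The genes and lists were chosen with earlier results of these data known. Values per array are given for SOX2, for genes past 2-fold in any comparison and for the 2 of each role with the smallest adjusted p in the responses or their difference. From each other list, up to 4 genes that passed in a comparison were named for that comparison, with the value in the other line beside some. Figures were drawn with matplotlib 3.10.9 under Python 3.11.15.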

Additional observations from a re-analysis of the deposited data

Results flagged for a closer look

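For 9 genes the change after siSOX2 differed between the lines by limma's test of the difference itself (NTera-2 minus 2102Ep, log2 scale, adjusted p of 0.05 or less over 18404 genes). It was positive for P4HA1 (1.28), ALDOC (1.08), BNIP3 (1.04), PFKFB4 (0.81), BNIP3L (0.75) and ENO2 (0.65). It was negative for ADM (-1.10), EPAS1 (-1.06) and SLC2A3 (-0.53). The lines differed in transfection lipid and in the amount of siRNA. They also differed in the remaining SOX2 RNA on the array, 64.0% of control in NTera-2 and 11.4% in 2102Ep. The authors detected no SOX2 protein by Western blot after siSOX2 in either line. The part of each difference cannot be told apart.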

How the results depend on the processing

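Of 83 changes of single genes followed through the alternatives, 1637 values in all, 1499 kept direction and side of the threshold, 95 kept direction but no longer passed, 24 came to pass and 19 changed sign. The sign changes concerned values near 0 that did not pass. In 2102Ep quantile normalization again gave ENO1 0.002, PKM 0.03 and HIF1A 0.035, and median centring gave HIF1A 0.004. With an array left out the change was -0.093 to 0.033 for ENO1, -0.088 to 0.022 for PKM and -0.218 to 0.143 for HIF1A. In NTera-2 median centring gave ALDOC -0.003 and quantile normalization again -0.006, and with an array left out the change was -0.061 to 0.12 for ALDOC, -0.085 to 0.256 for LDHA and -0.078 to 0.195 for HIF1A, whose difference in response was -0.072 to 0.289.

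The number of genes past the adjusted p was 17 in 2102Ep, 11 with every probe set as a feature and 11 to 18 with an array left out. In NTera-2 it was 2, 4 after quantile normalization again and 1 to 3 with an array left out. For the difference in response it was 9, and 6 to 11 with an array left out, and for the control cells 23 and 19 to 23. At 2-fold, 5 differences in response were called, 3 after quantile normalization again and 3 to 5 with an array left out. With an array left out, 2 to 3 were called in 2102Ep, 1 in NTera-2 and 4 to 5 between control cells. The cause of these moves was not tested.

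With the replicate number as a block, 78 of the 83 changes kept their side of the threshold. The replicate block lost ADM (adjusted p = 0.0521) and SLC2A3 (0.0587) in 2102Ep, SLC2A3 in the difference in response (0.055), and LDHB (0.06) and TPI1 (0.051) between control cells. Deviations of same-numbered arrays correlated at 0.065 to 0.179 in 2102Ep and -0.249 to 0.136 in NTera-2. Those of differently numbered arrays correlated at -0.394 to 0.295 and -0.228 to 0.343. Deviations from a mean of only 3 arrays depend on each other, so these values cannot show whether the numbers paired the arrays. In an array the number of arrays limits the precision, and 3 in a group left a median SE of 0.121 for a response and 0.171 for a difference in response.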

Other observations

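Genes of the amino acid stress response were counted as well. Of 13 such genes 2 fell in NTera-2 (15.4%, against 4.94% of all genes passing), CHAC1 by 0.74 and the cystine carrier SLC7A11 by 0.63. In 2102Ep 6 fell (46.2%, against 12.7% of all genes passing). Among them were SLC7A11 by 1.42, the lipoprotein receptor VLDLR and the asparagine synthetase ASNS by 0.96 each and the serine pathway enzyme PSAT1 by 0.86. In neither line did a gene of this list rise past the adjusted p. Of the fibroblast markers, the growth factor receptors PDGFRA and PDGFRB rose in 2102Ep by 0.86 and 0.87, and PDGFRB also in NTera-2 by 0.49, while the surface protein THY1 fell by 0.86 in NTera-2 and 0.61 in 2102Ep, and the matrix protein POSTN fell by 1.69 in NTera-2. The collagen COL1A2 had 8.134, 8.111 and 8.33 on NTera-2 siSOX2 arrays, against 7.755, 7.364 and 7.418 on control arrays. The highest change of the list in NTera-2 was that of the dim gene LUM, 0.737.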
